A study of Homo sapiens with 8 samples.

Results

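The SOXC genes *SOX4*, *SOX11* and *SOX12* encode the group C members of the SRY-related HMG-box (SOX) transcription factors. All 3 were followed through the H3K9me3 and H3K4me3 peak lists of SUM159 cells, against 19962 protein-coding promoters in all. The family was selected on 1 measured value, the H3K9me3 share at *SOX11*, which was lower in the All gRNA libraries when only the stronger peaks were kept. That contrast at *SOX11* was therefore described and not tested.

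SUM159 cells are an established, mesenchymal-like line from a triple-negative breast tumour. The study used them to silence *ZEB1*, a transcription factor that drives epithelial-mesenchymal transition, with dCas9-KRAB, a Cas9 without nuclease activity fused to a repressor domain that brings in H3K9 methyltransferases. All gRNA cells carried the pLV-KRAB vector with 4 guides against the *ZEB1* promoter, and No gRNA cells carried the same vector as an empty vector control, so that both groups carried dCas9-KRAB from a lentivirus. Native ChIP-seq, in which chromatin is digested without cross-linking and pulled down with an antibody, was performed for each mark on 2 biological replicates per group, which gave 8 libraries.

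SOXC factors share a closely similar DNA-binding domain and an activation domain at the far end of the protein, and each is encoded by a gene without introns. *SOX4* is widely expressed, responds to TGF-β and takes part in epithelial-mesenchymal transition in breast cells, *SOX11* is best known from the developing nervous system and from basal-like breast cancer, and *SOX12* is the weakest activator of the group. H3K9me3 marks compact, repressed chromatin, whereas H3K4me3 marks the promoters of active or poised genes.

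In hg38, with GENCODE release 44, each gene was annotated on the plus strand with 1 transcript of 1 exon. *SOX4* (ENSG00000124766.7) lies at chr6:21593751-21598619 and spans 4869 bases. *SOX11* (ENSG00000176887.7) lies at chr2:5692384-5701385 and spans 9002 bases, most of them in its UTR since the coding sequence takes only 1326. *SOX12* (ENSG00000177732.9) lies at chr20:325552-330224 and spans 4673 bases. The promoter tables matched *SOX4* and *SOX12*, and the 250 bases before each start site (RefSeq, GRCh38.p14) are shown because the H3K4me3 peaks described below cover them in full in every library. Capitals mark CpG dinucleotides, read on the plus strand at chr6:21593501-21593750 for *SOX4* and at chr20:325302-325551 for *SOX12*.
SOX4: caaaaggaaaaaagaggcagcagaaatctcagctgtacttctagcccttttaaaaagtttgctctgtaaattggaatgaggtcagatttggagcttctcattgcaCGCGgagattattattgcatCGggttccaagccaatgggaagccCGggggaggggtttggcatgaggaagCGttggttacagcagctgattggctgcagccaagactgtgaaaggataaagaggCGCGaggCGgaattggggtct
SOX12: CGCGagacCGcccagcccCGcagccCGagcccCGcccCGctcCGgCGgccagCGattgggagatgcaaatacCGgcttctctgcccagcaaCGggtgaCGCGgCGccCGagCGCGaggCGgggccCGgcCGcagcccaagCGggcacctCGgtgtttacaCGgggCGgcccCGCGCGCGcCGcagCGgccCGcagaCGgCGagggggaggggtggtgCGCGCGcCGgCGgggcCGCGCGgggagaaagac

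The *SOX4* sequence held 8 CpG (the letters CG) and was 48.8% G or C, and 72.9% of 15316 promoters of the same length held at least as many CpG. The *SOX12* sequence held 42 CpG and was 79.2% G or C, a count reached by 1.68% of the promoters. The median promoter held 17 CpG. The pair of sequences thus lay on opposite sides of the median in CpG content, although both genes carried H3K4me3.

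The depth of each library is unknown, since peak lists hold no read counts, and peak yield differed between libraries. The H3K9me3 libraries listed 321975 to 410355 peaks, which covered 723 to 770 Mb, and the H3K4me3 libraries listed 395287 to 506683 peaks, which covered 623 to 933 Mb. At q ≤ 0.05 the H3K9me3 peaks covered 198 and 188 Mb in the All gRNA libraries and 97.6 and 238 Mb in the No gRNA libraries. At the targeted *ZEB1* locus, H3K9me3 peaks covered 79.4% and 82.0% of the transcription start site (TSS) ± 10 kb in the All gRNA libraries, and 4.57% and 1.33% in the No gRNA libraries. H3K4me3 peaks covered 0% and 100% of its TSS ± 1 kb in the libraries labelled All gRNA replicates 1 and 2, and 0% and 100% in those labelled No gRNA replicates 1 and 2. The names of the deposited files give the other condition for 2 H3K4me3 libraries, All gRNA replicate 2 and No gRNA replicate 1, so that *ZEB1* followed the file names and not the labels. H3K4me3 libraries are therefore called by their labels. The *SOX4* and *SOX12* differences are also given without this pair, beside the values grouped by file names. Counts over all promoters and values of gene lists rest on all 4 libraries as labelled. Of 6 mesenchymal markers, all but *ZEB1* had H3K4me3 over at least 50% of the TSS ± 1 kb in all 4 libraries. For *VIM*, *FN1* and *AXL* the share was 100% in all 4. Of 6 epithelial markers 0 reached 50% in all 4, against 54.8% of all promoters. Most libraries were nonetheless high at some of them. In All gRNA replicates 1 and 2 and No gRNA replicates 1 and 2, *ESRP1* had 100%, 100%, 19.85% and 100%. *CDH1* had 93.65%, 24.25%, 84.05% and 91.55%, and *EPCAM* 48.65%, 100%, 61.45% and 100%. The other 3 were lower in most libraries. *GRHL2* had 68.15%, 29.8%, 0% and 33.5%, and *OVOL1* 33%, 2.75%, 16.85% and 22%. *CLDN4* had 32.3%, 32.2%, 100% and 62.95%, as labelled a gap of at least 25 points without overlap, lower in All gRNA. Of all promoters 2.22% had such a gap. At q ≤ 0.05 all 6 epithelial markers were at 0% in all 4 libraries, and 0 of the 6 mesenchymal markers reached 50% in all 4.

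With all deposited peaks, the 3 genes fell into different chromatin states that were alike in every library. *SOX11* lay under H3K9me3 and had no H3K4me3 peak at its start site. *SOX4* and *SOX12* had H3K4me3 at their start sites and little H3K9me3. No SOXC promoter differed by as much as 25 percentage points between the groups without overlap for either mark.

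H3K9me3 peaks covered 72.8% and 80.6% of the *SOX11* TSS ± 10 kb in the All gRNA libraries, and 70.8% and 77.6% in the No gRNA libraries. The means were 76.7% ± 5.54 and 74.2% ± 4.80 (SD, n = 2 each), a difference of 2.44 points that was smaller than the pooled SD of 5.18. The groups overlapped, with 1 higher and 1 lower library in each. Of all promoters, 655 (3.28%) had a share at least as high in every library as the lowest *SOX11* value.

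H3K9me3 peaks covered 12.3% and 12.4% of the *SOX4* window in the All gRNA libraries, and 16.5% and 22.1% in the No gRNA libraries. The difference was -6.94 points (pooled SD 2.77), with both All gRNA libraries below both No gRNA libraries. Nearer to the start site, over the TSS ± 5 kb, it was only -0.63 points. The exact two-sided permutation test gave p = 0.33, the smallest value that 2 against 2 libraries allow, so this design could not pass 0.05. Each library held 3 weak peaks here, at folds over background of 1.39 to 1.91, and none had q ≤ 0.05. The 13.2 kb of the window that no library covered included the bases from -5.03 to -0.009 kb, where distances are counted from the TSS and minus is upstream. Across the start site itself All gRNA replicate 2 had a weak peak, from -0.008 to 0.426 kb (q = 0.875).

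For *SOX12* the H3K9me3 shares were 0% and 3.97% in the All gRNA libraries and 0% and 3.04% in the No gRNA libraries. The difference was 0.465 points (pooled SD 2.5, exact permutation p = 1.0). No library covered 18.8 kb of the 20 kb, and the mean share stood at percentile 25.3 of all promoters. The median promoter had a mean share of 6.06%, below *SOX4* and *SOX11* and above *SOX12*.

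By the rule of a 25 point gap without overlap, 36 promoters (0.18%) were called higher and 7 (0.0351%) lower in All gRNA for H3K9me3, and 0 of the 3 SOXC genes were among them. For H3K4me3, 356 (1.78%) were called higher and 443 (2.22%) lower, again with 0 SOXC genes. With each H3K4me3 library trimmed to the same covered length, that balance turned to 409 higher and 286 lower. At background shares this low, 3 genes would seldom include a call, and the absence of one says little about the family.

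**Figure D1:**
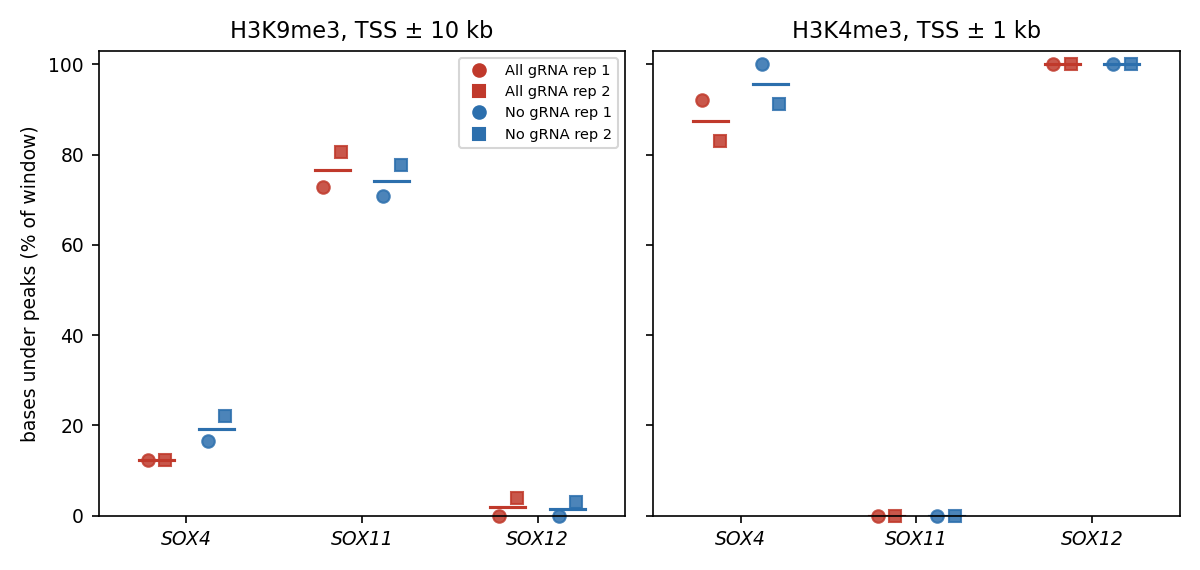
Share of the TSS ± 10 kb under H3K9me3 peaks (left) and of the TSS ± 1 kb under H3K4me3 peaks (right), in percent of the window, for each library labelled All gRNA (red) or No gRNA (blue), with horizontal lines at the group means of 2 libraries. *SOX11* sits between 70.8% and 80.6% for H3K9me3 and at 0% for H3K4me3, while *SOX12* is at 100% for H3K4me3 in all 4 libraries.

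Promoters with the *SOX11* combination were uncommon. H3K9me3 over at least 50% of the TSS ± 10 kb in all 4 libraries was found at 1092 promoters (5.47%), and H3K4me3 was at 0% of the TSS ± 1 kb in all 4 at 684 (3.43%). Both held at 91 promoters (0.456%). The combination of *SOX4* and *SOX12*, with H3K9me3 at no more than 25% and H3K4me3 at 50% or more in all libraries, was held by 9591 promoters (48.0%). These are descriptions, since the genes were picked with H3K9me3 at *SOX11* in view.

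The H3K9me3 peaks at *SOX11* overlapped widely between libraries. Of the 20 kb window, 12.8 kb were covered in all 4 libraries and 3.21 kb in none. The stretches common to all ran from -10 to -3.50 kb, from -2.08 to -0.74 kb, from 0.446 to 1.62 kb, from 3.26 to 5.50 kb and from 7.69 to 9.21 kb. The first 2 are upstream of the start site and the other 3 are inside the transcribed region, with the last one ending just past it. The uncovered gaps from 2.20 to 3.12 kb and from 6.06 to 7.64 kb were in the UTR, downstream of the coding sequence. The coding sequence itself was covered to 100%, 96.4%, 91.9% and 100% in All gRNA replicates 1 and 2 and No gRNA replicates 1 and 2. The libraries differed around the start site. All gRNA replicate 2 had 1 unbroken peak from -38.5 to 1.62 kb, without the break near -3 kb that the other 3 libraries had, and No gRNA replicate 1 alone had a break across the start site, from -0.74 to 0.446 kb.

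The groups came apart on peak strength, the measure behind the choice of the gene. In All gRNA replicate 1 the window held 4 peaks, at folds over background of 1.75 to 1.96, the strongest with q = 0.0583. All gRNA replicate 2 held 3 peaks at folds of 1.67 to 1.92, the strongest with q = 0.0604. Neither library had a peak past q ≤ 0.05.
No gRNA replicate 1 held 5 peaks at folds of 1.68 to 2.174, of which 2 passed, with q = 0.0416 and 0.0456. No gRNA replicate 2 held 4 peaks at folds of 1.72 to 2.07, of which 3 passed, with q between 0.0131 and 0.0204. The highest fold in each No gRNA library was above that in each All gRNA library by little, and the best All gRNA peaks missed the threshold narrowly. At q ≤ 0.05 the *SOX11* share became 0% in both All gRNA libraries, against 41.0% and 63.7% for No gRNA replicates 1 and 2, and differed by -52.4 points. At q ≤ 0.01 it was 0% in all 4 libraries.

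This is the contrast on which the gene was selected, and nothing is read from it. At q ≤ 0.05, 45 promoters (0.225%) were called higher in All gRNA for H3K9me3 and 1 (0.00501%) lower, which was *SOX11*. For H3K4me3 at q ≤ 0.05, 27 (0.135%) were called higher and 323 (1.62%) lower, with 0 SOXC genes.

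**Figure D2:**
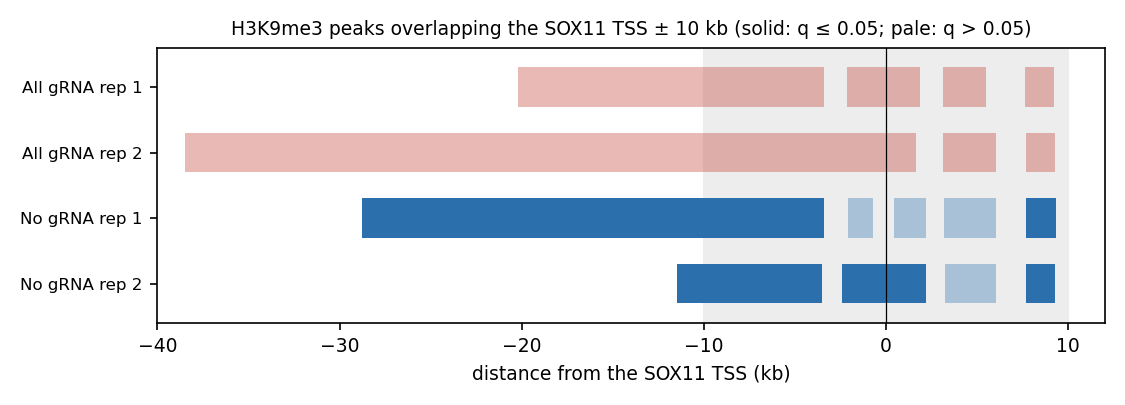
H3K9me3 peaks that overlap the *SOX11* TSS ± 10 kb (grey) in each library, drawn by distance from the TSS in kb, with peaks of q ≤ 0.05 solid and weaker peaks pale. The gaps downstream of the start site from 2.20 to 3.12 kb and from 6.06 to 7.64 kb recur in all 4 libraries, those upstream do not, and solid peaks number 0 and 0 in the All gRNA libraries and 2 and 3 in the No gRNA libraries.

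A fixed q keeps a different amount of each library, so the peaks of each library were also ranked by q and kept up to equal covered lengths. At 100 Mb the *SOX11* window was covered to 41.0% in No gRNA replicate 1 and to 0% in the other 3 libraries. At 200 Mb both All gRNA libraries were still at 0%, against 47.7% and 63.7% for No gRNA replicates 1 and 2. At 250 Mb the All gRNA libraries reached 44.7% and 65.9%, those of No gRNA had not moved, and the groups overlapped. The strongest *SOX11* peak entered after 217 and 211 Mb in the All gRNA libraries, and after 82.0 and 127 Mb in the No gRNA libraries. In rank it was among the top 7.59% and 6.65% of the peaks listed in All gRNA and the top 2.34% and 3.30% in No gRNA. These ranks come from the peaks on which the gene was selected and are no further evidence. Whether the read depth of the libraries moved with this rank was not tested, as the lists hold no depth.

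*SOX11* was part of a much wider H3K9me3 region. Over the TSS ± 200 kb, peaks covered 89.9% and 89.0% in the All gRNA libraries and 89.7% and 88.9% in the No gRNA libraries. The libraries differed by about 1 point at this scale. Only 280 promoters had a mean share this high (percentile 98.6), and the median promoter had 10.4%. Of 40 windows of 10 kb, 39 were covered to at least 50% in all 4 libraries. The exception was the window from -120 to -110 kb, with 38.8%, 39.6%, 31.2% and 25.9% in All gRNA replicates 1 and 2 and No gRNA replicates 1 and 2. Within 100 kb of the start site the least covered window was the 10 kb that begin there, with 58.0%, 61.2%, 62.5% and 65.7% in the same order.

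The wide regions of the other genes differed. *SOX4* had 30.3%, 28.7%, 26.6% and 29.4% of its TSS ± 200 kb under H3K9me3, in the same order of libraries. In the 40 kb that end 10 kb upstream of *SOX4*, the shares were 51.0%, 50.1%, 47.8% and 50.9%, more than at the promoter in every library. In the matching 40 kb downstream they were 46.2%, 51.1%, 23.1% and 36.9%, higher in both All gRNA libraries than in both No gRNA libraries, the opposite direction to the TSS ± 10 kb. This difference was not tested. *SOX12* had 14.0%, 16.7%, 18.1% and 16.4% over the TSS ± 200 kb. In the matching 40 kb downstream of *SOX12* the shares were 20.7%, 22.9%, 43.8% and 30.5%. There both All gRNA libraries were lower than both No gRNA libraries, opposite to *SOX4*, and this was not tested either. On the scale of 200 kb, the order *SOX11*, *SOX4*, *SOX12* was the same in every library, without overlap between genes.

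**Figure D3:**
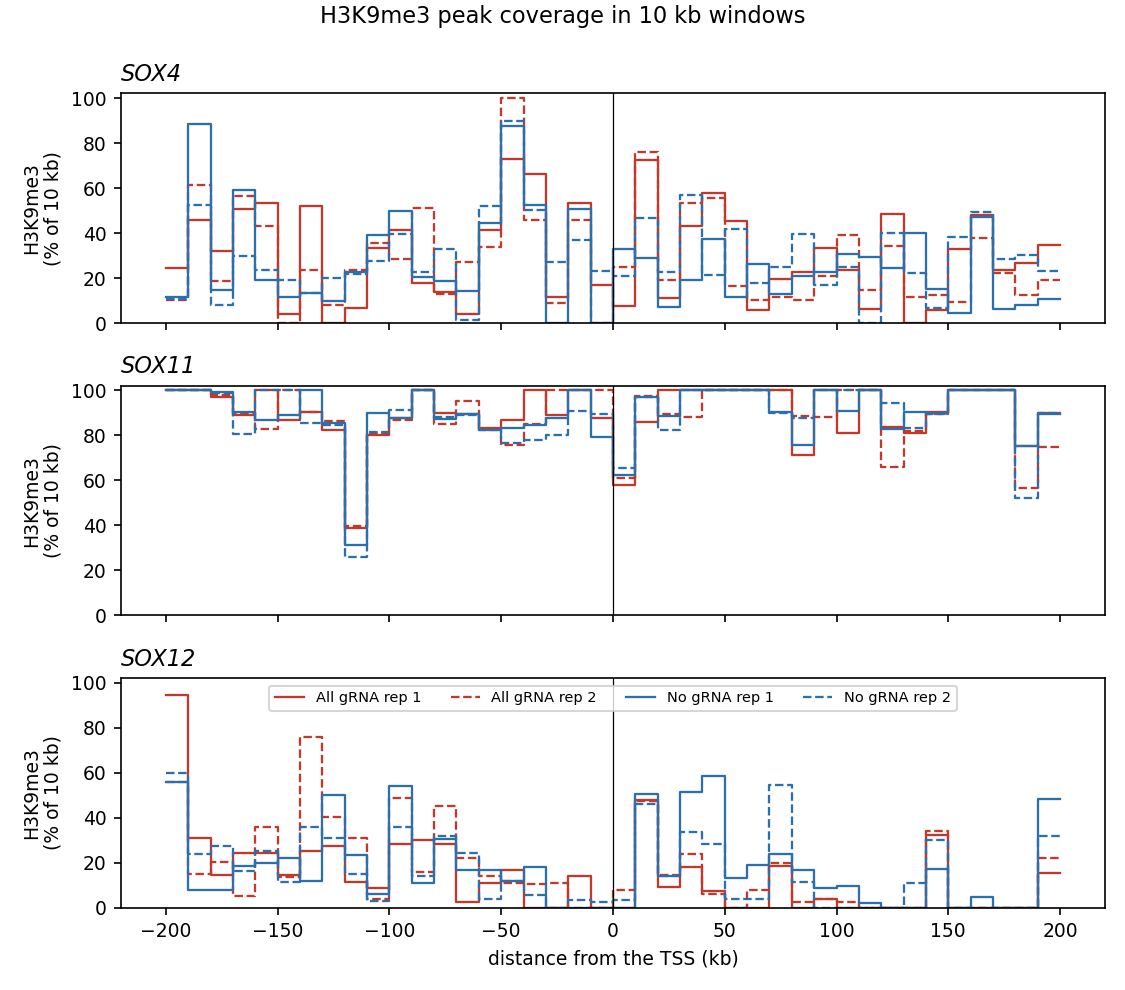
Percent of each 10 kb window under H3K9me3 peaks within 200 kb of the TSS of *SOX4*, *SOX11* and *SOX12*, against distance from the TSS in kb, with 1 line per library. *SOX11* stays at 50% or more in 39 of 40 windows in all 4 libraries, and *SOX4* and *SOX12* do so in 1 window each.

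H3K4me3 peaks covered 92.2% and 82.9% of the *SOX4* TSS ± 1 kb in the libraries labelled All gRNA replicates 1 and 2, and 100% and 91.2% in those labelled No gRNA replicates 1 and 2. The means were 87.5% ± 6.54 and 95.6% ± 6.26 (SD, n = 2 each), and the groups overlapped. The difference of -8.05 points gave an exact permutation p of 0.67. Without the pair of libraries whose file names give the other condition, 92.2% stood against 91.2%, a difference of 1.0 point in the other direction. Grouped by file names, 92.2% and 100% (All gRNA) stood against 82.9% and 91.2% (No gRNA), with the higher mean in All gRNA. The whole *SOX4* gene was under H3K4me3 in all 4 libraries.

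The *SOX4* peak differed more in width than in presence. The widest peak that met the TSS ± 1 kb measured 6434 and 5944 bases under the label All gRNA, against 22527 and 11687 bases under the label No gRNA. The groups did not overlap, and the difference of -10918 bases (pooled SD 5426) gave an exact permutation p of 0.33. Without the pair with discordant file names, 6434 stood against 11687 bases, a difference of -5253 bases. Grouped by file names, 6434 and 22527 bases (All gRNA) stood against 5944 and 11687 bases (No gRNA). The groups then overlapped, and the higher mean was that of All gRNA. Among all promoters, those without a peak counted as width 0, these widths were at percentiles 65.7, 57.3, 94.4 and 76.3. The median width over promoters with a peak was 5209 to 6525 bases across libraries.
Covered length also differed between these libraries, and the one labelled No gRNA replicate 1, with the widest *SOX4* peak, covered the most of the genome (933 Mb). With the strongest peaks of each library kept up to 623 Mb, this peak still measured 22527 bases and the difference was again -10918 bases. Such a cut drops weaker peaks and does not shorten those kept. The part of covered length in the width was not tested beyond this.

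A second *SOX4* peak lay upstream, with the stretch from -6.36 to -3.82 kb covered in all 4 libraries. In 3 libraries a gap separated it from the peak at the start site, which began at -0.843, -0.658 and -0.823 kb. In the library labelled No gRNA replicate 1 both were joined in 1 peak that ran from -6.36 to 16.2 kb. The *SOX4* start-site peak was among the strongest of each list, within the top 0.467%, 0.0957%, 0.924% and 0.316% by q. It passed q ≤ 0.05 in 3 libraries, and in No gRNA replicate 1 it had q = 0.0549.

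H3K4me3 peaks covered 100% of the *SOX12* TSS ± 1 kb and 100% of the gene in all 4 libraries, as they did the TSS ± 1 kb of 6271 promoters (31.4%). The stretch from -4.06 to 6.08 kb was covered in every library. The peak spanned 12616 and 13490 bases under the label All gRNA, against 11831 and 11787 bases under the label No gRNA. The difference of 1244 bases (pooled SD 438) gave an exact permutation p of 0.33, and without the pair with discordant file names it was 829 bases. Grouped by file names, 12616 and 11831 bases (All gRNA) stood against 13490 and 11787 bases (No gRNA). The groups then overlapped, and the lower mean was that of All gRNA. As labelled, the direction was opposite to that at *SOX4*, and a difference between the genes was not tested.

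The *SOX12* peak was weaker than that of *SOX4* although it covered the whole window. It was within the top 4.42%, 4.31%, 3.17% and 1.71% of each list by q. Its fold over background was 2.46, 2.28, 2.29 and 3.18, against 3.30, 3.36, 2.61 and 4.08 for *SOX4*. Only the library labelled No gRNA replicate 2 kept it at q ≤ 0.05, with q = 0.00805. That library had the most H3K4me3 peaks at this threshold (13877, against 3067 to 8602 in the others). With the strongest peaks of each library kept up to 19.3 Mb, a setting chosen after seeing the data, the *SOX12* share was 0% in all 4. The part of the yield was not tested beyond this.

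*SOX11* had no H3K4me3 peak within the TSS ± 1 kb in any of the 4 libraries. The bases from -1.10 to 1.22 kb were free of peaks in all, and no base of the TSS ± 10 kb was covered in all 4. The scattered peaks in this window numbered 1, 3, 3 and 1, had q of 0.398 or more, and at most places only 1 library had a peak. Over the TSS ± 200 kb, H3K4me3 peaks covered 10.8%, 14.7%, 7.60% and 11.7%, below the median promoter at 40.6% and at percentile 6.56. An H3K4me3 peak at the *SOX11* start site was thus not detectable in these lists, whose depth is unknown.

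**Figure D4:**
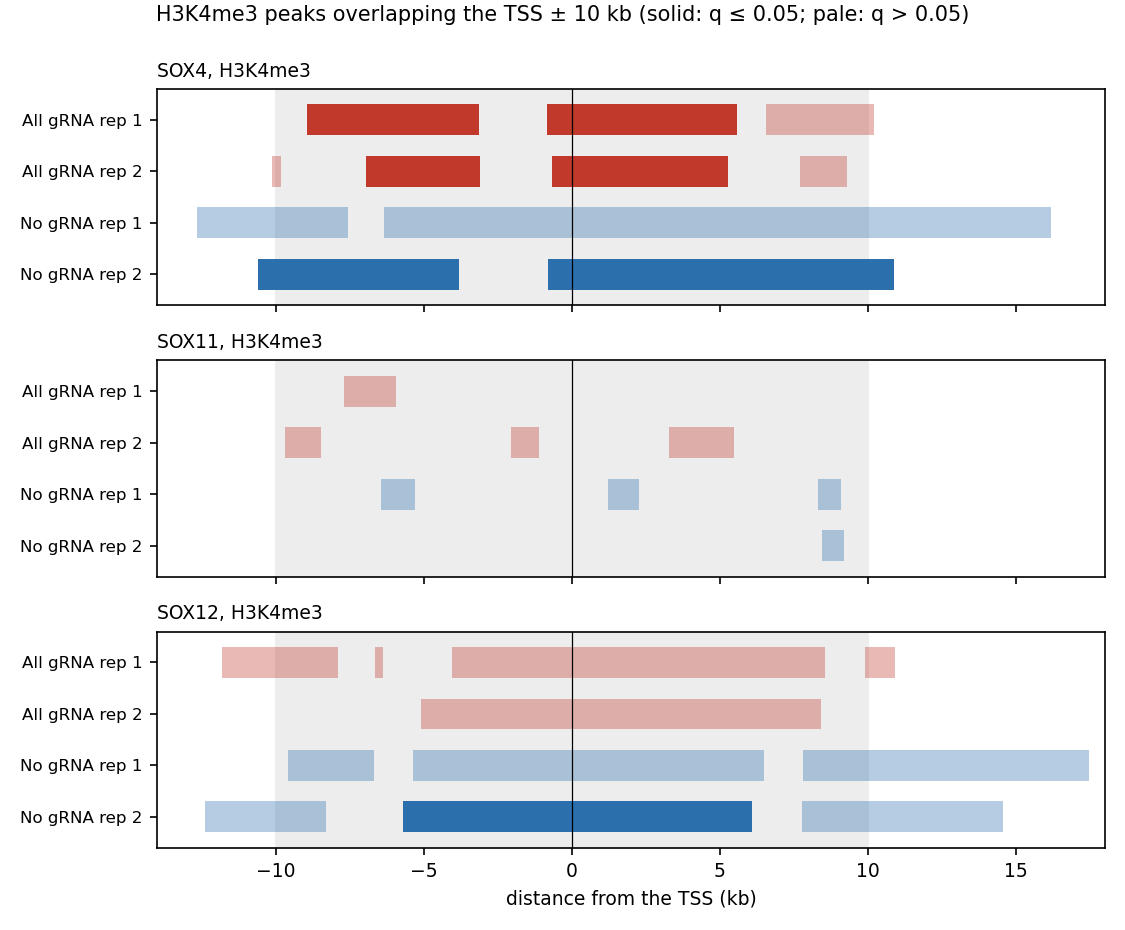
H3K4me3 peaks that overlap the TSS ± 10 kb (grey) of *SOX4*, *SOX11* and *SOX12*, by distance from the TSS in kb, in each library as labelled, with peaks of q ≤ 0.05 solid and weaker peaks pale. Peaks cross the *SOX4* and *SOX12* start sites in all 4 libraries and the *SOX11* start site in 0.

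The nearest protein-coding genes differed in both marks. *SOX11* lies in a stretch poor in genes, with *DCDC2C* 1844 kb to its left and *CMPK2*, a mitochondrial nucleotide kinase, 1139 kb to its right. *CMPK2* had H3K9me3 over 80.4%, 90.6%, 79.5% and 74.4% of its TSS ± 10 kb, a cover as high as at *SOX11*, but it had H3K4me3 over 55.0%, 43.3% and 51.2% of its TSS ± 1 kb in 3 of the 4 libraries. *DCDC2C*, which encodes a doublecortin-domain protein, had less H3K9me3, at 54.4%, 43.9%, 46.6% and 50.4%, and H3K4me3 over 0% to 47.6%. *SOX4* also stood alone, with *CDKAL1*, a tRNA-modifying enzyme, 361 kb to its left and the prolactin gene *PRL* 689 kb to its right. H3K4me3 covered 71.1% to 98.4% of the *CDKAL1* window and 0% to 20.2% of the *PRL* window. *SOX12* had close neighbours on both sides. *ZCCHC3*, 25.2 kb to its left, had H3K4me3 over 100% in all 4 libraries, and *NRSN2*, 16.6 kb to its right, over 100% in 3 and 49.95% in No gRNA replicate 1.

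Among the other 16 SOX genes, only *SOX3* had H3K9me3 as high in every library as the lowest *SOX11* value, as did 3.28% of all promoters. The list is too short to set its count apart from that share. The median gene of this list had a share of 16.9%, against 6.06% over all promoters, and the median difference between groups was -0.54 points against -0.92. *SOX3*, a gene of neural progenitors on chromosome X, had the highest share, at 100%, 100%, 87.5% and 93.8%. It was the only one of the 16 with at least 50% in all 4 libraries, against 5.47% of all promoters. *SOX30*, a testis gene, was the one member called by the 25 point rule, lower in All gRNA at 49.8% and 49.4% than in No gRNA at 80.8% and 78.4%. Over all promoters, 0.0351% were called lower. At q ≤ 0.05, H3K9me3 peaks covered 0% of the *SOX30* window in all 4 libraries, and 0 of the 16 were called for either mark. Over all promoters the shares called higher and lower were then 0.225% and 0.00501% for H3K9me3, and 0.135% and 1.62% for H3K4me3.

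For H3K4me3, *SOX12* shared full cover of the TSS ± 1 kb in all 4 libraries with 2 of the 16, *SOX6* and *SOX9*, both known from cartilage formation. Over all promoters 31.4% had such cover. The median of the list was 60.2% against 86.8% over all promoters, and the median difference was 7.13 points against 0. None of the 16 was called, against 1.78% called higher and 2.22% lower over all promoters. None was at 0% in all 4 libraries as *SOX11* was, against 3.43% of all promoters. With so few genes and 2 libraries per group, these medians describe the list and no more.

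Of 7 genes tied to SOXC factors as targets or partners, 0 were called for either mark. Over all promoters, 0.18% were called higher and 0.0351% lower for H3K9me3, and 1.78% and 2.22% for H3K4me3. At such shares 7 genes would seldom include a call, so that their absence says little. *EZH2*, the H3K27 methyltransferase, the transcription factors *TEAD2* and *POU3F3*, and the neuronal tubulin *TUBB3* had H3K4me3 over 100% of the TSS ± 1 kb in all 4 libraries. *DCX*, which encodes a microtubule protein of migrating neurons, was the one member at 0% in all 4, and H3K9me3 covered 43.9%, 58.8%, 48.0% and 37.9% of its TSS ± 10 kb. The median H3K9me3 share was 19.8% against 6.06% over all promoters, and the median H3K4me3 share 100% against 86.8%.

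Likeness to each gene was measured as the mean absolute difference, in points, over the 8 library values of both marks, leaving out promoters within 100 kb. The promoters nearest to *SOX11* were *OR4A47*, an olfactory receptor gene, at 1.61 points and *KRTAP20-2*, a gene for a hair keratin-associated protein, at 2.15. Those nearest to *SOX4* were *UBE2V2*, a ubiquitin-conjugating enzyme variant, at 2.36 and *C5orf63* at 3.08. Those nearest to *SOX12* were ENSG00000288678 at 0.0519 and the galactosyltransferase gene *B4GALT1* at 0.0613. The distances at *SOX12* were the smallest of the 3 genes, and its full H3K4me3 cover was shared with 6271 promoters.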

How the data were processed

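H3K9me3 and H3K4me3 were measured by native ChIP-seq in SUM159 cells, with 2 libraries per mark and group, grouped by their labels. According to the study's methods, the authors trimmed reads with fastp, aligned them to hg38 with bowtie2, removed exclusion-list and duplicate reads, and called broad peaks with MACS2 in each library. The submitters' processing notes name bcl2fastq 2.17, Trimmomatic 0.33, Bowtie 1.1.2 and MACS2 2.1.0 instead. An input was kept as control, but its use in the MACS2 call is not given in the sources used here. For every peak the authors deposited the MACS2 score (a whole number), the fold or ratio over background, and the p-value and q-value as −log10. The lists reach p of about 0.1 and therefore hold weak regions. No depth or counting interval can be had from them.

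Peaks on chromosomes 1 to 22 and X were merged library by library, and the covered share was computed for the TSS ± 10 kb (H3K9me3) and TSS ± 1 kb (H3K4me3) of 19962 protein-coding genes (GENCODE release 44), with all deposited peaks. Width was the longest peak meeting the TSS ± 1 kb. Groups were compared with exact two-sided permutation tests over 6 labellings, whose smallest p is 0.33. A promoter was called when the groups were at least 25 points apart without overlap. Named besides the SOXC genes were *ZEB1*, the nearest neighbours, SOX and target-list genes that were called or at the extremes, and the 2 promoters most alike. *DCX* and the cell type markers were named after their values were seen. Members and lists were chosen with earlier results of these data known. Python 3.11.15, numpy 2.4.6, pandas 2.3.3, scipy 1.17.1 and matplotlib 3.10.9 were used. The code for the calls was checked on simulated shares with a large planted change and little noise. That check does not show how reliable the calls are in these libraries. Alternatives were q ≤ 0.05, 0.01 and 0.001, equal covered length, other windows, joined gaps, a gap of 50 points, each library left out and replicate numbers as a block. A stricter equal covered length, leaving out the pair with discordant file names and grouping by file names were chosen after seeing the data.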

Additional observations from a re-analysis of the deposited data

How the results depend on the processing

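Of 75 alternative values for the 6 SOXC differences (All gRNA minus No gRNA) that were not 0, 44 kept the direction, 13 were 0 and 18 had the opposite direction. Of 39 for the 3 differences of 0, 36 stayed at 0. At q ≤ 0.05 the *SOX11* H3K9me3 difference (in points) went from 2.44 to -52.4, with the TSS ± 5 kb to 7.85, and with a stricter equal covered length, chosen after seeing the data, to -20.5. It was 0 at q ≤ 0.01 and 0.001, as no peak passed, and for the same reason the H3K9me3 differences of *SOX4* and *SOX12* were 0 at q ≤ 0.05, 0.01 and 0.001 and at the stricter length. The *SOX4* H3K9me3 difference shrank to -0.63 with the TSS ± 5 kb and reversed to 4.95 with the TSS ± 25 kb. That of *SOX12* reversed to -0.21 at equal covered length. For H3K4me3, the *SOX4* share difference became 41.95 and its width difference 345.5 bases at q ≤ 0.05, at q ≤ 0.01 and at the stricter equal length, because the peak of No gRNA replicate 1 was then dropped. They were -45.6 points and -5843.5 bases at q ≤ 0.001, where only No gRNA replicate 2 kept a peak, and the share difference was -16.5 with the TSS ± 2 kb and 0 with the TSS ± 500 bases. With gaps up to 3 kb joined the *SOX4* width difference was -27275 bases. Leaving out the pair with discordant file names turned the *SOX4* share difference to 1.0. The *SOX12* share and width differences became -50 points and -5893.5 bases at q ≤ 0.05 and 0.01, where 1 library kept the peak, the width 0 at q ≤ 0.001 and the stricter length, and the width -75173.5 bases with gaps up to 3 kb joined. The *SOX11* H3K4me3 share difference was 1.50 with the TSS ± 2 kb. Unless stated, the cause was not tested.

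Leaving out each library in turn gave H3K9me3 differences of -9.71 to -4.18 for *SOX4*, -1.47 to 6.36 for *SOX11* and -1.52 to 2.45 for *SOX12*. The sign turned at *SOX11* without All gRNA replicate 2 (-1.47) or No gRNA replicate 1 (-0.95), and at *SOX12* without All gRNA replicate 2 (-1.52) or No gRNA replicate 1 (-1.05). For H3K4me3 the share ranged from -12.7 to -3.43 for *SOX4* and stayed at 0 for *SOX11* and *SOX12*, and the width ranged from -16338 to -5498 bases for *SOX4* and from 807 to 1681 for *SOX12*.

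Libraries with the same replicate number, as labelled, hardly shared deviations over promoters (correlation 0.0238 for H3K9me3 and 0.0137 for H3K4me3). This does not settle whether they were prepared as pairs. With the replicate block the differences were equal, for example -6.94 points at *SOX4*, and the smallest paired p is 0.5 (exact permutation).

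Promoters called over all genes fell for H3K9me3 from 36 higher to 3 with a gap of 50 points, and from 7 lower to 1 at q ≤ 0.05, 2 at q ≤ 0.01 and 0 at 50 points. For H3K4me3, 356 higher became 27, 3 and 84 at q ≤ 0.05, q ≤ 0.01 and 50 points, and 443 lower became 201 at q ≤ 0.01, 286 at equal covered length (with 409 higher) and 121 at 50 points.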
